A study of Rattus norvegicus with 6 samples.

Results

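Claudins are the membrane proteins that form the strands of tight junctions, the seals between neighboring epithelial cells, and 8 of them, together with occludin (Ocln) and the scaffold protein ZO-1 (Tjp1), were described here in colon RNA of 6 rats, 3 of the S.LEW congenic strain (C1 to C3) and 3 of the parental S strain (S1 to S3). The 10 genes (Cldn1, Cldn2, Cldn3, Cldn4, Cldn5, Cldn7, Cldn8, Cldn15, Ocln and Tjp1) were taken by name, through the accession that the array gives each probe, and have 12 of its 30367 probes. All 12 probes were in the deposited table, which holds 12418 named genes, and all were well above background on all 6 arrays. S is the Dahl salt-sensitive rat (SS/Jr), and the S.LEW(10)x12x2x3x5 congenic strain carries a segment of the Lewis rat on the S background. The rats of both strains were male, ate a diet with 0.3% salt after weaning, received azoxymethane (AOM, a colon carcinogen) intraperitoneally at 15 mg/kg in 2 weekly injections from 6 weeks of age, and were 30 weeks old at sampling. There were no untreated rats, and total RNA came from colon tissue with all of its cell types, so that fewer cells of a type and less RNA per cell cannot be told apart. The labels name tumor-induced colon but do not say whether the RNA came from tumor, non-tumor or mixed tissue. The paper counted more colon tumors in congenic than in S rats. Each rat had 1 array, read in a single color.

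A claudin spans the membrane, and its extracellular loops meet those of claudins on the next cell. Pore-forming claudins such as Cldn2 and Cldn15 let small cations and water pass between the cells, whereas sealing claudins tighten the barrier. Cldn1, Cldn3 and Cldn5 are generally counted as sealing; Cldn4, Cldn7 and Cldn8 are placed with them here, although their effect depends on the cell and on the other claudins present. In the intestine Cldn2 is known mostly from crypt cells and from inflamed mucosa, Cldn15 is prominent in the small intestine, Cldn3, Cldn4, Cldn7 and Cldn8 are typical of the colon, and Cldn5 is best known from endothelium. Ocln is a membrane protein of the same strands, and Tjp1 links the strands to the actin cytoskeleton.

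The values are quantile-normalized log2 intensities, and every difference below is congenic minus S on the log2 scale. A gene was called at an unadjusted limma p under 0.05 with a change of at least 2-fold, the cut-offs of the study. These cut-offs called 3.79% of the 12418 genes higher in congenic colon and 2.62% lower, each gene read by its brightest probe, and no gene had a limma adjusted p under 0.05 (at an unadjusted p under 0.05 there were 1798 genes, 14.5%). The share of spots well above background was 80.9%, 73.8% and 78.5% in C1 to C3 and 86.3%, 83.2% and 87.6% in S1 to S3. Every congenic array was thus below every S array. Median intensities were highest in S1 (594) and S3 (445) and ranged from 214 to 291 in the other rats. S1 and S3 stood apart from the other rats: they correlated at 0.98 with each other and at 0.90 to 0.94 with the rest, whereas S2 correlated at 0.97 to 0.98 with the congenic rats. The slide, inferred here from arrays that share a scan date and time, also divided the rats. Slide 1 carried C1 and the S rats and slide 2 carried the other congenic rats.

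Of the 10 genes, 3 were called higher in congenic colon (Cldn15, Cldn8 and Cldn2) and 0 were called lower. The median difference of the 10 was 0.47, against 0.03 over all genes. The strains did not overlap for 5 genes, with Cldn15, Cldn8, Cldn3 and Cldn7 higher in every congenic rat (4 of 10; 14.2% of all genes) and Cldn4 lower in every congenic rat (1 of 10; 5.01% of all genes). None had a limma adjusted p under 0.05, and with 3 rats a strain the exact two-sided permutation test cannot give a p below 0.10.

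**Figure D1:**
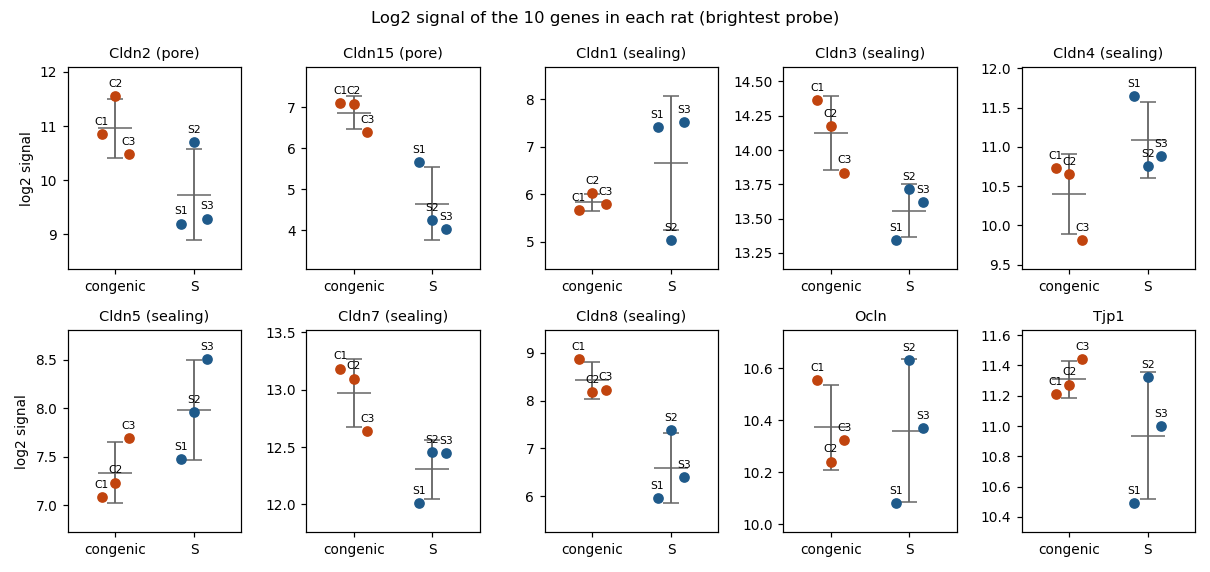
Deposited log2 intensity of the 10 genes in each rat, by its brightest probe, with a panel for each gene and its own vertical scale; points are rats, and the bars are the strain mean ± SD (n = 3). The congenic rats lie above all S rats for Cldn15 and Cldn8, and the strains overlap for Cldn2, where S2 exceeds C3.

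Cldn15, a pore-forming claudin, had the largest difference. Its log2 intensities were 7.11, 7.10 and 6.41 in C1 to C3 and 5.68, 4.24 and 4.03 in S1 to S3. All congenic rats were above all S rats, and among the S rats S1 was clearly the highest. The difference was 2.22 (SE 0.47, 95% confidence interval 1.08 to 3.36), or 4.66-fold, with a limma adjusted p of 0.232 and an exact permutation p of 0.10. The difference was 2.63 without S1 and S3 (where 2.25% of all genes were called higher and 2.01% lower) and 2.46 with the slide as a block (2.66% higher, 1.02% lower), a value that equals that of C1 against the S rats of its own slide. S2 stands alone for its strain in the first of these and C1 in the last, and a lone rat is assumed to vary like the rats of the other strain. With normexp background correction, the setting that moved Cldn15 the most, the difference was 1.02, barely past 2-fold.

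The promoter of Cldn15 and that of Cldn8 below are shown because these 2 genes had the largest differences. Each is the 250 bases before the RefSeq start of the gene in GRCr8, 5′ to 3′ on the strand of the gene; capitals would mark motif matches, of which these have none. The Cldn15 promoter is chr12:25343626-25343875 on the minus strand and is 60.8% G or C, against a median of 52.0% over the promoters of all genes.
Cldn15: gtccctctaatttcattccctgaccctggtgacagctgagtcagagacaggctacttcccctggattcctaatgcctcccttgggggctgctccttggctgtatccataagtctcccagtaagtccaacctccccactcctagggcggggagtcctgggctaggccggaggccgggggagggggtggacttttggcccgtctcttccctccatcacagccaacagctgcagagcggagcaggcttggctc

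Cldn8, which restricts the passage of cations and is a claudin of the distal colon, had the next largest difference. Its log2 intensities were 8.86, 8.17 and 8.23 in C1 to C3, against 5.96, 7.39 and 6.40 in S1 to S3. The strains did not overlap, and S2 was the S rat nearest to the congenic rats. The difference was 1.84 (SE 0.41, 95% confidence interval 0.85 to 2.82), or 3.57-fold, with a limma adjusted p of 0.247 and an exact permutation p of 0.10. It was 1.03 without S1 and S3, where S2 alone stands for its strain, and 2.28 with the slide as a block and for C1 alone against the S rats of slide 1. The Cldn8 promoter is chr11:41364331-41364580 on the minus strand, with 50.4% G or C.
Cldn8: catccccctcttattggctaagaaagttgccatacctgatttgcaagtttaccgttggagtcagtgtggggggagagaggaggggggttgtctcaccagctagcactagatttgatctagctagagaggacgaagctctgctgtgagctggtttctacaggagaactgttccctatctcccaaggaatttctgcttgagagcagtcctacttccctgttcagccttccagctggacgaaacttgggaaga

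Cldn2, the pore-forming claudin of the crypt, was read by 2 probes. On the brighter one its log2 intensities were 10.85, 11.55 and 10.48 in C1 to C3 and 9.19, 10.70 and 9.29 in S1 to S3. S1 and S3 were low, whereas S2 lay above C3 and close to C1, so that the strains overlapped. The difference was 1.23 (SE 0.48, 95% confidence interval 0.07 to 2.40), or 2.35-fold, with a limma adjusted p of 0.374 and an exact permutation p of 0.20. The dimmer probe read 6.30, 7.14 and 6.26 in C1 to C3 and 4.95, 6.04 and 4.76 in S1 to S3. There the strains did not overlap, with a difference of 1.32 (SE 0.42) and a limma adjusted p of 0.329. The call on the brighter probe depended on S1 and S3, since without them the difference was 0.26. It was also lost when a single rat was left out, at 1.29 without C1, 0.94 without C2, 0.97 without S1 and 1.01 without S3, and it did not pass the cut-offs with the slide as a block or within slide 1, where it was 1.13.

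**Figure D2:**
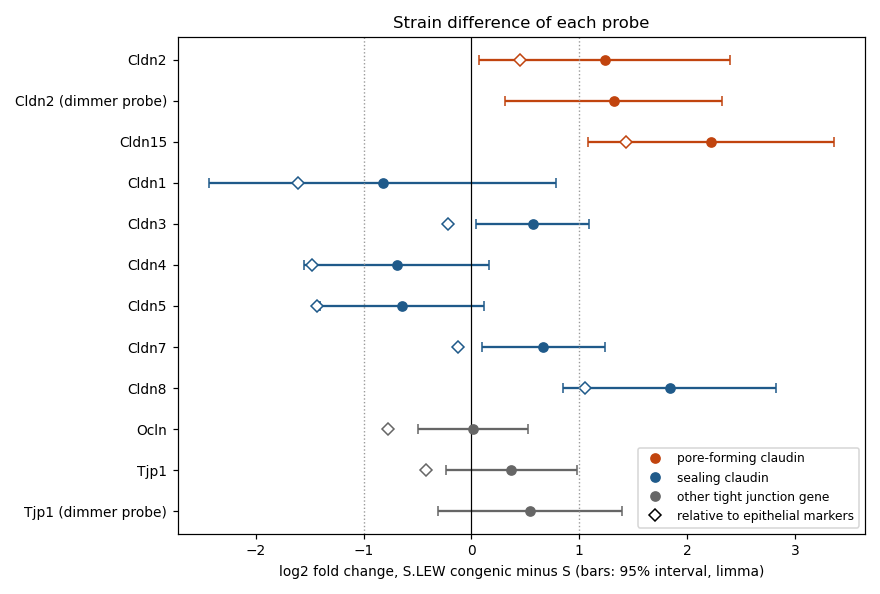
Difference between the strains (S.LEW congenic minus S, log2) of each of the 12 probes; filled points are limma estimates with 95% confidence intervals, open diamonds the difference relative to the epithelial markers (described below), and dotted lines a 2-fold change. On the brightest probes the intervals of Cldn15, Cldn8, Cldn2, Cldn7 and Cldn3 lie above 0, and those of Cldn1, Cldn4, Cldn5, Ocln and Tjp1 include 0.

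Cldn3 and Cldn7, both abundant claudins of colonic epithelium, were higher in all congenic rats by less than 2-fold. Cldn3 had a log2 intensity of 14.36, 14.18 and 13.84 in C1 to C3 and of 13.34, 13.71 and 13.62 in S1 to S3. The difference was 0.57 (SE 0.22, 95% confidence interval 0.05 to 1.09), or 1.48-fold, with a limma adjusted p of 0.367. Cldn7 had a log2 intensity of 13.18, 13.10 and 12.64 in C1 to C3 and of 12.01, 12.46 and 12.45 in S1 to S3. Its difference was 0.67 (SE 0.24, 95% confidence interval 0.10 to 1.24), or 1.59-fold, with a limma adjusted p of 0.350. Both genes ranked the rats in the same order, from C1, C2 and C3 down to S2, S3 and S1.

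The Cldn7 promoter is shown for its E-boxes, CAGGTG in either orientation (CACCTG on the other strand), the sequence that repressors of the Snail family bind. The region is chr10:55188420-55188669 on the plus strand in GRCr8, and capitals mark the matches.
Cldn7: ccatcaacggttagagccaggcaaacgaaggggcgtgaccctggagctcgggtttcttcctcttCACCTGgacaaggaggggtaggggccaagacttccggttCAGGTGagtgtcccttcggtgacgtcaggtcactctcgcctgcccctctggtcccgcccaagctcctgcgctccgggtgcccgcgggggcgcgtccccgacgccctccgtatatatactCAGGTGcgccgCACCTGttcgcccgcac

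There were 4 matches in these 250 bases and 1 more that spans the start of the gene. Of the 33469 windows of 300 bases (250 before the start and 50 after it), 18.8% held at least 1 E-box and 4 held 5 or more. Windows were found for 8 of the 10 genes, all but Cldn2 and Cldn4, and Cldn3, Cldn7 and Ocln held the E-box. None of the 8 held TATAAA on either strand, the only form of the TATA box searched, which 14.2% of all windows held. Other forms, such as the tatata stretch in the Cldn7 promoter, were not counted. None held the element of the intestinal factor CDX2, searched as TTTATG, which was in 12.7% of windows. The GATA element, searched as AGATAA and found in 11.6%, and an element of HNF4, found in 1.40%, had no match either. A match describes the sequence only, and binding was not measured.

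Cldn4, Cldn5 and Cldn1 had lower means in the congenic rats and none was called. Cldn4, a colonic claudin, had a log2 intensity of 10.73, 10.66 and 9.81 in C1 to C3 and of 11.64, 10.75 and 10.88 in S1 to S3. Every congenic rat was below every S rat, but C1 and S2 differed by very little. The difference was -0.69 (SE 0.36, 95% confidence interval -1.55 to 0.17), with a limma adjusted p of 0.433 and an exact permutation p of 0.10. Cldn5, the claudin of endothelium, read 7.09, 7.24 and 7.69 in C1 to C3 and 7.48, 7.96 and 8.50 in S1 to S3. C3 lay above S1, and the difference was -0.64 (SE 0.32, 95% confidence interval -1.40 to 0.12) with a limma adjusted p of 0.418. The 9 other endothelial markers tested had a median difference of -0.24, and 0 of them were called.

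Cldn1, a broadly expressed sealing claudin, read 5.66, 6.03 and 5.80 in C1 to C3 and 7.41, 5.03 and 7.52 in S1 to S3. S1 and S3 were the highest of the 6 rats and S2 was the lowest. The difference was -0.82 (SE 0.67, 95% confidence interval -2.43 to 0.78), with a limma adjusted p of 0.566. Without S1 and S3 its sign turned, to 0.80, and without S2 it was -1.64 and was called lower, as were 8.26% of all genes.

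Neither of the other tight junction proteins was called. Ocln had a log2 intensity of 10.55, 10.24 and 10.32 in C1 to C3 and of 10.08, 10.63 and 10.37 in S1 to S3. The strain means nearly coincided, with a difference of 0.01 (SE 0.21, 95% confidence interval -0.50 to 0.53) and a limma adjusted p of 0.980. Tjp1 read 11.21, 11.27 and 11.44 in C1 to C3 and 10.49, 11.32 and 11.002 in S1 to S3 on its brighter probe. S1 was lowest and S2 was among the congenic rats; the difference was 0.37 (SE 0.25, 95% confidence interval -0.24 to 0.98) with a limma adjusted p of 0.512. The dimmer Tjp1 probe gave 0.55 (SE 0.35), with a limma adjusted p of 0.500.

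The 2 pore-forming claudins had a median difference of 1.73, and the 6 sealing claudins one of -0.04. Both pore-forming claudins were called higher, against 1 of the 6 sealing claudins (Cldn8). Cldn10, a further pore-forming claudin outside the 10 genes, had a lower mean in the congenic rats, where it was not well above background (described below). Of the sealing claudins 3 had a difference above 0 and 3 below. As the median of the deviations of its genes from their 6-rat means, the pore-forming group stood at 0.93 in C1, 1.27 in C2 and 0.39 in C3, and at -0.62 in S1, -0.58 in S2 and -1.39 in S3. The sealing claudins stood at 0.25, 0.12 and -0.00 in C1 to C3 and at -0.34, -0.12 and -0.03 in S1 to S3. The pore-forming value minus the sealing value was positive in the 3 congenic rats (0.68, 1.15 and 0.39) and negative in the 3 S rats (-0.28, -0.46 and -1.37). The sealing group was not uniform, as Cldn8, Cldn7 and Cldn3 were higher in every congenic rat and Cldn4 was lower in every one. The gap between the 2 medians was 1.77, and it was 0.98 without S1 and S3. With Cldn1, Cldn3 and Cldn5 alone as the sealing group it was 2.37, where the sealing median is the value of Cldn5 (-0.64). The median of the 6 sealing claudins lies midway between Cldn5 and Cldn3 (0.57). The size of the gap thus depends on counting Cldn5, best known from endothelium, as a sealing claudin. Since the genes were chosen with results of these rats known, this gap was not tested.

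**Figure D3:**
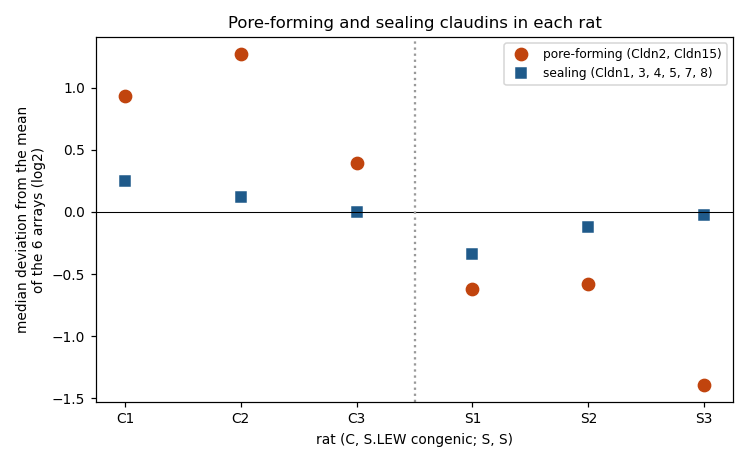
Median deviation of the pore-forming claudins (circles; Cldn2 and Cldn15) and of the sealing claudins (squares; Cldn1, Cldn3, Cldn4, Cldn5, Cldn7 and Cldn8) from the 6-rat mean of each gene, in log2 units, for each rat. The pore-forming claudins are above 0 in C1 to C3 and below 0 in S1 to S3, whereas the sealing claudins stay between -0.34 and 0.25.

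Markers of other cell types also differed between the rats. The mean log2 intensity of 10 epithelial markers (Epcam, Vil1, Cdh1 and keratins among them) was 14.23, 14.10 and 13.76 in C1 to C3, against 13.07, 13.45 and 13.22 in S1 to S3. All 10 had a difference above 0, with a median of 0.80, and for 7 of them the strains did not overlap (14.2% of all genes). Markers of T and B lymphocytes were high in S1 (mean 11.61) and S3 (11.34) and ranged from 6.45 to 6.90 in the other 4 rats. A further 3 lymphocyte markers, Cd3e, Cd2 and Cd79b, were well above background in S1 and S3 and in no other rat, and are not in the deposited table. Smooth muscle markers were low in S1 (14.20) and S3 (15.35) and between 16.15 and 16.50 in the other rats. Endothelial markers ranged from 8.30 to 8.67 in the congenic rats and from 8.49 to 8.84 in the S rats. Markers of the small intestine, where Cldn15 is prominent, ranged from 8.08 to 8.54 in the congenic rats and from 7.92 to 8.42 in the S rats. Of these 6 genes, 4 had a difference below 0, and the largest difference was 1.69. The mean of 5 surface colonocyte markers ranged from 11.94 to 12.43 in the congenic rats and from 10.95 to 11.70 in the S rats. These 5 were not uniform, with 4 above 0 and 1 below it, from -0.998 to 3.41. The 3 fat markers tested stood at 6.41, 7.14 and 6.95 in C1 to C3 and at 6.03, 5.48 and 5.42 in S1 to S3 without overlap, and 1 of them was called higher. The part of these cell types in the differences of the claudins was not tested.

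Relative to the mean of the epithelial markers in the same rat, Cldn15 was higher in the congenic rats by 1.43 (limma adjusted p of 0.0618) and Cldn8 by 1.05 (0.0612). Both kept the strains apart in all rats, and both passed the cut-offs. The nearest rats differed by little, at -7.35 in C3 and -7.40 in S1 for Cldn15 and at -5.94 in C2 and -6.06 in S2 for Cldn8. Cldn2 was at 0.45 and overlapped. Cldn3 was at -0.22, Cldn7 at -0.12, Tjp1 at -0.42 and Ocln at -0.77, so that the sign turned for these 4 genes. Cldn4 was at -1.48 and Cldn5 at -1.43, and both were called lower (limma adjusted p of 0.0612 for each). Cldn1 was lowest, at -1.61, and was not called (limma adjusted p of 0.0941). This scaling moved the median of all genes from 0.03 to -0.76, and 27.4% of all genes were called lower under it and 0.507% higher. It raised the probes at an unadjusted limma p under 0.05 from 3115 to 12834 of 23997, which lowers the adjusted p-values. The unadjusted limma p itself rose, from 0.0028 to 0.0192 for Cldn15 and from 0.0035 to 0.0161 for Cldn8. The adjusted p-values under this scaling are therefore not stronger evidence than those without it.

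**Figure D4:**
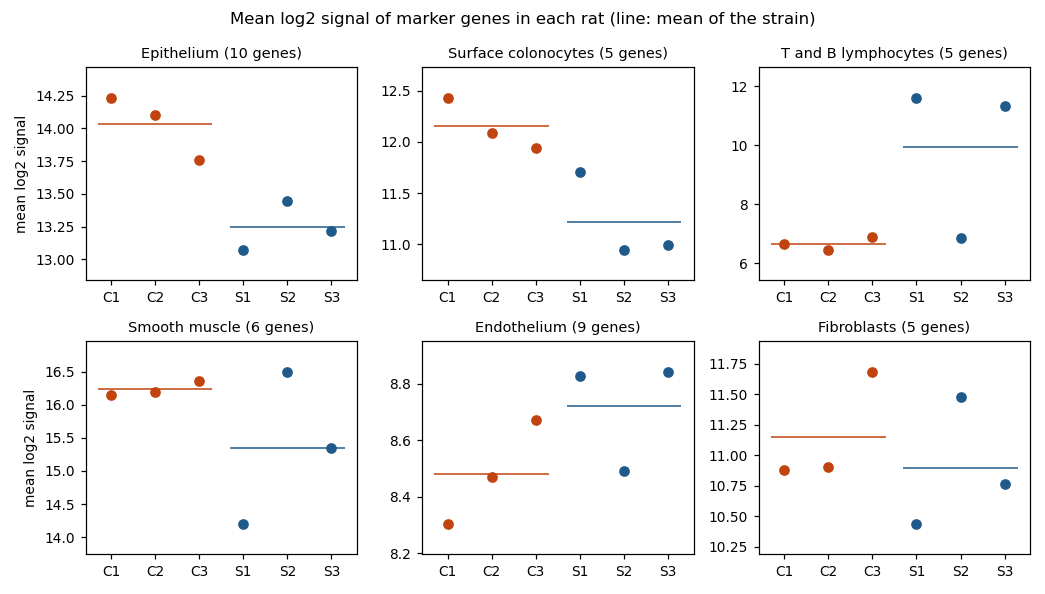
Mean log2 intensity of 6 marker lists, 1 point per rat, with lines at the strain means and a vertical scale of its own in each panel. S1 and S3 are high in lymphocyte markers and low in smooth muscle markers, and the 3 congenic rats are above the 3 S rats in epithelial markers.

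The genes whose values followed Cldn15 most closely over the 6 arrays were As3mt, Rreb1, Sult1c2, Ghrl and Lmx1a, with Pearson correlations of 0.995, 0.994, 0.991, 0.991 and 0.991. Among the genes closest to Cldn8 were Atp5if1, Spire2, Atp5pd and Sh3yl1, at 0.999, 0.998, 0.995 and 0.994. Of these, Atp5pd is a subunit of the mitochondrial ATP synthase and Atp5if1 its inhibitor. The 2 sets did not share a gene, and Cldn15 and Cldn8 correlated at 0.70 with each other. These are the highest of 12418 correlations over 6 points, which also share the difference between strains, and are a description.

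The other tight junction genes were mostly a little higher in the congenic rats. Of 65 listed genes, 52 were in the deposited table, and 42 of them (80.8%) had a difference above 0, against 52.9% of all genes, with a median of 0.43. None was called higher, as were 3.79% of all genes, and 1 was called lower, as were 2.62% of all genes. That 1 was Cldn10, by readings not well above background in the congenic rats. Of the 52, 18 had an unadjusted limma p under 0.05 (14.5% of all genes), 17 of them with a positive difference. For 19 all congenic rats were above all S rats (14.2% of all genes). Without S2, 10 were called higher, when 11.3% of all genes were, and 3 lower, when 8.26% of all genes were. By role, the difference was above 0 for 6 of 9 other claudins (median 0.53), 12 of 13 membrane proteins (0.39), 10 of 11 scaffolds (0.61) and 14 of 19 polarity proteins and regulators (0.35). The 10 epithelial markers, by comparison, had a median of 0.80, as given above.

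Cldn10, a claudin that forms ion pores, read 4.61, 2.72 and 4.03 in C1 to C3 and 5.71, 4.47 and 5.21 in S1 to S3. It was well above background in all S rats and in no congenic rat, so it entered the tested table through the S rats alone. Every congenic array also had fewer spots well above background than any S array, as given above. Only a bound can be given, at least 1.74-fold lower, which is under the 2-fold cut-off. The limma adjusted p was 0.382 on the values as read, and C1 lay above S2. Its call was lost when C2, C3, S1 or S3 was left out. The membrane proteins with the largest differences were Bves, an adhesion protein of muscle and epithelium, at 1.42 (limma adjusted p of 0.404), and Cxadr, the coxsackievirus and adenovirus receptor, at 0.87 (0.323). Bves read 9.53, 9.52 and 10.03 in C1 to C3 and 7.20, 9.81 and 7.81 in S1 to S3, with S2 among the congenic rats. Cxadr read 8.43, 8.25 and 7.72 in C1 to C3 and 6.99, 7.60 and 7.21 in S1 to S3, and the strains did not overlap.

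Among the scaffolds, Magi1 differed by 0.95 (limma adjusted p of 0.350). It read 7.94, 8.03 and 8.13 in C1 to C3 and 6.57, 7.81 and 6.86 in S1 to S3, so that S2 was close to the congenic rats without overlapping them. Among the regulators, Mylk, the myosin light chain kinase that contracts the junction ring and smooth muscle, differed by 1.08 (limma adjusted p of 0.397), and Arhgap17, an activator of GTP hydrolysis by Cdc42, by -1.004 (0.392). Without S1 and S3 the differences were -0.12 for Bves, -0.02 for Mylk and 0.02 for Arhgap17, so that these 3 turned sign, and 0.53 for Cxadr and 0.22 for Magi1.

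**Figure D5:**
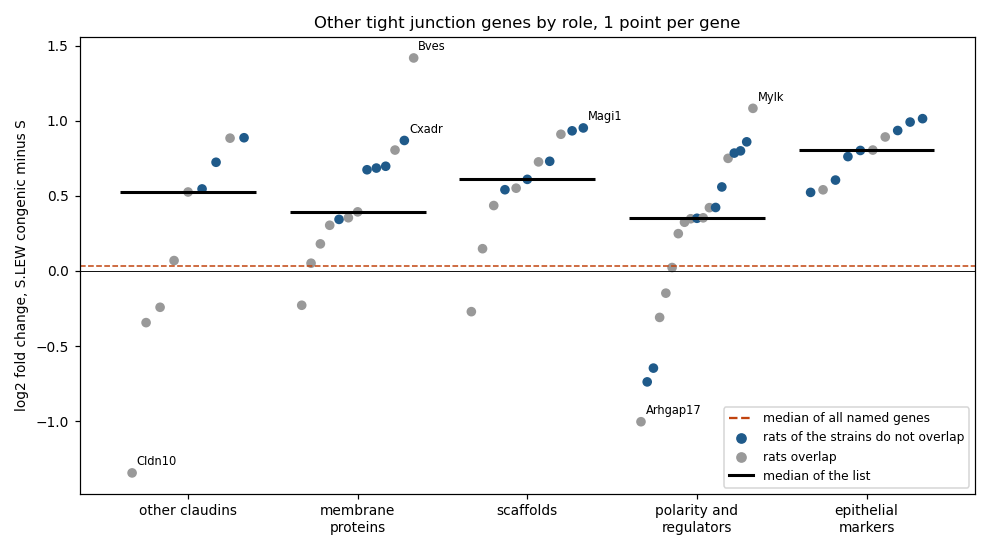
Difference between the strains (S.LEW congenic minus S, log2) of the other tight junction genes by role, beside the epithelial markers, with a point for each gene by its brightest probe and black lines at the list medians; blue points are genes whose strains do not overlap, the dashed line is the median of all genes, and Epcam stands in 2 lists. Most points lie above 0, with 42 of the 52 tight junction genes there, and Cldn10 lies lowest.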

How the data were processed

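Colon RNA of 3 S.LEW congenic and 3 S rats was hybridized to 1 Agilent single-color array per rat. The deposited scanner intensity values are background-corrected and not normalized (Agilent Feature Extraction 11.0.1.1, per the submitters' processing notes). The authors quantile-normalized them and deposited log2 values of 23997 probes detected in at least 3 samples, which were tested here. The genome build of the probe annotation is not given in the sources used here; accessions matched to RefSeq (GRCr8) named 18005 of 30367 probes. The comparison of strains used lmFit and eBayes of limma 3.58.1 (R 4.3.3) without covariates, over all deposited probes with Benjamini-Hochberg adjustment. The code was tested on simulated data that gave both strains the per-probe SD of the congenic rats. That test does not cover the split of S1 and S3 from S2. A gene was read by its brightest probe. Exact permutation tests were two-sided. The members and gene lists were chosen with earlier results of these data known. Named were all members, in each other list the genes past the cut-offs or else the 2 with the largest difference, and for Cldn15 and Cldn8 the 5 most correlated genes, some of which are not reported here. Promoter windows came from RefSeq. Alternatives covered the scanner values, 75th percentile scaling, normexp (offset 50), dim-probe filters, the methods' t-test, array weights, the slide or replicate number as a block, leaving out each rat, and 3 settings chosen after seeing the data: without S1 and S3, C1 against the S rats of slide 1, and scaling to the epithelial markers. Figures were drawn with matplotlib 3.10.9. Litters and cage mates are not given, so p-values measure the spread between these rats.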

Additional observations from a re-analysis of the deposited data

How the results depend on the processing

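The number of rats and the signal over background limit the precision. Of the 20 alternatives, Cldn15 and Cldn8 were past the cut-offs in all that drew the difference from more than 1 rat of each strain. Without S1 and S3, with the slide as a block and for C1 within slide 1, the difference rests on 1 rat of a strain. Such a rat is assumed to vary like the others, so these fits carry no weight as tests. Cldn15 ranged from 1.02 (normexp) to 2.73 and Cldn8 from 1.03 (without S1 and S3) to 2.28 (leaving out 1 rat, 1.91 to 2.73 and 1.52 to 2.24). In the other results the cause of a change was not tested.

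Over all probes, 776 were called higher and 562 lower. The counts were 694 and 762 with 75th percentile scaling and 359 and 381 with normexp background correction, so that the share of higher calls depended on the scaling and on the background step. They were 515 and 178 with the methods' t-test, 2000 and 1649 with array weights, 551 and 227 with the slide as a block, 683 and 347 with the filter on all 6 arrays, 450 and 478 without S1 and S3, 443 and 187 for C1 within slide 1, and 95 and 6749 with the epithelial scaling. Leaving out 1 rat gave 477 to 2397 higher and 192 to 1725 lower, the highest of each without S2 and the lowest of each without S3.

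Cldn2 did not pass the cut-offs without a filter (1.23), with the methods' t-test (1.23), the slide as a block (1.13), within slide 1 (1.13), without S1 and S3 (0.26) or with the epithelial scaling (0.45), and ranged from 0.94 to 1.72 when a rat was left out. Members called lower numbered 2 with array weights (Cldn1 at -1.59 and Cldn5 at -1.05), where 7.91% of all genes were called lower. They numbered 2 with the epithelial scaling (Cldn4 at -1.48 and Cldn5 at -1.43), where 27.4% of all genes were. Leaving out 1 rat gave 0 to 1, with 1 without S2, where 8.26% of all genes were called lower. Without S1 and S3, Cldn1 turned to 0.80, Ocln to -0.26 and Tjp1 to -0.013; with the epithelial scaling, Cldn3 turned to -0.22, Cldn7 to -0.12, Ocln to -0.77 and Tjp1 to -0.42. Leaving out 1 rat gave -1.64 to -0.39 for Cldn1 and -0.13 to 0.15 for Ocln. The pore-forming minus sealing gap was 2.37 with the narrower sealing group (whose median is Cldn5), 1.08 with normexp and 0.98 without S1 and S3.

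Of the other tight junction genes, those called higher numbered 8 with array weights, where 9.36% of all genes were called higher. They numbered 3 with the slide as a block, where 2.66% of all genes were. Leaving out 1 rat gave 0 to 10, with 10 without S2 (11.3% of all genes), 2 without C3 (3.25%) and 1 without C1 (3.31%). Those called lower numbered 0 with normexp, the filter on all 6 arrays, no filter, the methods' t-test and the slide block. Of all genes, 2.11%, 2.10%, 2.08%, 0.797% and 1.02% were called lower in these, in that order. They numbered 2 with array weights, where 7.91% of all genes were called lower, and 8 with the epithelial scaling, where 27.4% were. Leaving out 1 rat gave 0 to 3, with 3 without S2 (8.26% of all genes) and 0 without C2, C3, S1 or S3 (0.862% to 1.64%).

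An S rat and a congenic rat shared each cage, but the labels do not say which of these rats were cage mates. The deviations of same-numbered rats correlated at -0.02, -0.13 and -0.06. With so few rats this cannot show whether the replicate numbers pair them. With the replicate number as a block, 794 probes were called higher and 744 lower, and 3 members were called higher, as were 3.85% of all genes.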
